A study of Bos taurus and Felis catus with 14 samples.

Results

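The microRNA families mir-219 and mir-338 were examined among the hairpin precursors that miRWoods predicted in cow (Bos taurus) and cat (Felis catus). A predicted locus was taken as a member when its name held mir-219 or mir-338 as a whole number, with any letter, copy number or mark for a new member. This gave 6 members among the 1305 predicted loci, 4 of the 810 bovine loci and 2 of the 495 feline loci. The names of another 3 bovine loci mark them as antisense to these members, and they served as the comparison on the opposite strand. No feline locus had such a name. Small RNA was sequenced from 10 bovine tissues, with 1 library each of brain stem, optic nerve, retina, iris, bone marrow, submandibular lymph node, penis, dental pulp, oral papillae and corium. Of these, 8 came from the same Angus steer, while brain stem and corium came from another steer each. The feline libraries were 2 of normal skin and 2 of normal skeletal muscle from 3 aged, neutered male domestic short hair cats, and no source describes a treatment of either species. There was 1 call set for each species, made from all its libraries together and listing positions and names alone. Members were therefore placed and measured from these sets, levels by tissue were not analysed here, and no value has a replicate. The oligodendrocyte label was not checked, since it would need those levels.

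A microRNA gene is transcribed into a hairpin, which is cut to leave a short duplex with 1 product from the 5′ arm (5p) and 1 from the 3′ arm (3p), and a product that is loaded into Argonaute finds its targets mainly through the seed, bases 2 to 8 from its 5′ end. In the central nervous system of other vertebrates, miR-219 and miR-338 rise as oligodendrocyte precursors turn into myelinating cells, and they repress transcripts that hold the precursors in a proliferating state. Brain stem and optic nerve are rich in myelin, whereas feline skin and muscle hold peripheral nerve but no oligodendrocytes.

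The bovine and feline sets hold no sequence. To show the letters that the mir-338 name stands for, the human products of mir-338 from the study's own list of human microRNAs are given here with the seed in capitals. That list covers MCF-7 breast cancer cells, further cell lines and liver. Neither sequence was read from cow or cat.
human miR-338-5p: aACAATATcctggtgctgagt
human miR-338-3p: tCCAGCATcagtgattttgttga
As given in the study's list, the human 5p product is 21 nt long and the 3p product 23 nt. Their seeds differ, so each arm would address its own set of targets.

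Among the bovine members, mir-219 had 2 loci and mir-338 had 2. The locus bta-mir-219-1 lies on the minus strand of chromosome 11 (98997146 to 98997248), and bta-mir-219-2 on the minus strand of chromosome 23 (7335346 to 7335415). The locus bta-mir-338 lies on chromosome 19 from 52189642 to 52189706 on the plus strand. These 3 carry plain bovine names, taken here as the mark of an annotated microRNA. A count of loci by such names differs slightly from the study's own count of annotated loci. The remaining locus lies on the plus strand of chromosome 16 (36476669 to 36476752). Its name gives the family mir-338 with a suffix for predictions outside the annotation, and it is called the chromosome 16 mir-338 locus here. In the cat, fca-mir-219 lies on NC_018735.2 (chromosome D4) from 86954182 to 86954247 and the feline mir-338 locus on NC_018736.2 (chromosome E1) from 59319038 to 59319098, both on the minus strand. The name of the feline mir-338 locus has the same suffix as that of the chromosome 16 locus. In the study's methods, mature products outside the annotation were called homologous from a shared seed and similarity to a known microRNA. That match was not checked here, so the family of these loci rests on their names. No further feline copy of either family was called. The feline libraries were of skin and muscle alone, so this does not show that a copy is absent from the cat.

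The names of the bovine members were searched for among RefSeq genes on the assembly ARS-UCD2.0, whose coordinates are not those used above, and 3 of the 4 were found. In RefSeq, MIR219-1 lies between URM1, which codes for a ubiquitin-like modifier, and CERCAM. MIR219-2 lies between HSD17B8 and RING1, a subunit of a Polycomb repressive complex. MIR338 overlaps AATK, a kinase gene of neural tissue, with CEP131 and BAIAP2 as the nearest protein-coding genes on either side. The chromosome 16 mir-338 locus has a name given by the study, so a search by name could not find it. Its position was not looked up.

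Products from both arms were called at 5 of the 6 members (83.3%, 95% exact binomial interval 35.9 to 99.6%), which were 3 of 4 in cow and 2 of 2 in cat. Over all loci the share with both arms was 72.5% in cow and 65.7% in cat, inside the interval of the members. The 5 hairpins with both arms are the annotated bovine loci and the feline loci of both families, and every product of the members was 21 to 23 nt long. The interval covers counting error over few loci and no variation between animals. It treats the members as independent, although they include copies of a family and the same families in both species.

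The mir-219 hairpins had almost the same layout in both species. In bta-mir-219-1 the 5p product had 23 nt (98997205 to 98997227) and the 3p product 22 nt (98997163 to 98997184), and the 5′ ends of the products lay 43 nt apart. In fca-mir-219 the 5p product had 21 nt (86954227 to 86954247) and the 3p product 22 nt (86954183 to 86954204), again with 43 nt between the 5′ ends. In bta-mir-219-2 the 5p product had 21 nt (7335392 to 7335412) and the 3p product 23 nt (7335349 to 7335371), with 41 nt between the 5′ ends. By this distance the feline locus equalled bta-mir-219-1 and differed from bta-mir-219-2 by 2 nt. The stretch left between the products, which holds the loop, was 20 nt in both bovine copies and 22 nt in the cat. The 5p product of fca-mir-219 was 2 nt shorter than that of bta-mir-219-1, which accounts for the wider stretch against that copy. Against bta-mir-219-2, whose 5p product also had 21 nt, the wider stretch came from the distance between the 5′ ends.

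The products of the mir-338 loci with both arms lay closer together. In bta-mir-338 both products had 21 nt, the 5p product from 52189644 to 52189664 and the 3p product from 52189683 to 52189703, and their 5′ ends were 39 nt apart. In the feline mir-338 locus both products also had 21 nt, the 5p product from 59319075 to 59319095 and the 3p product from 59319039 to 59319059, with 36 nt between the 5′ ends. The 3 nt of difference lay between the products, where the cow had 18 nt and the cat had 15 nt. The median distance over all loci with both arms was 38 nt in each species. A distance of at least 43 nt was seen at 86 of 587 bovine loci (14.7%) and 48 of 325 feline loci (14.8%), so the mir-219 hairpins stood in the upper part of the range in both species. At least 39 nt was seen at 45.1% of the bovine loci, and at least 36 nt at 82.5% of the feline loci.

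**Figure D1:**
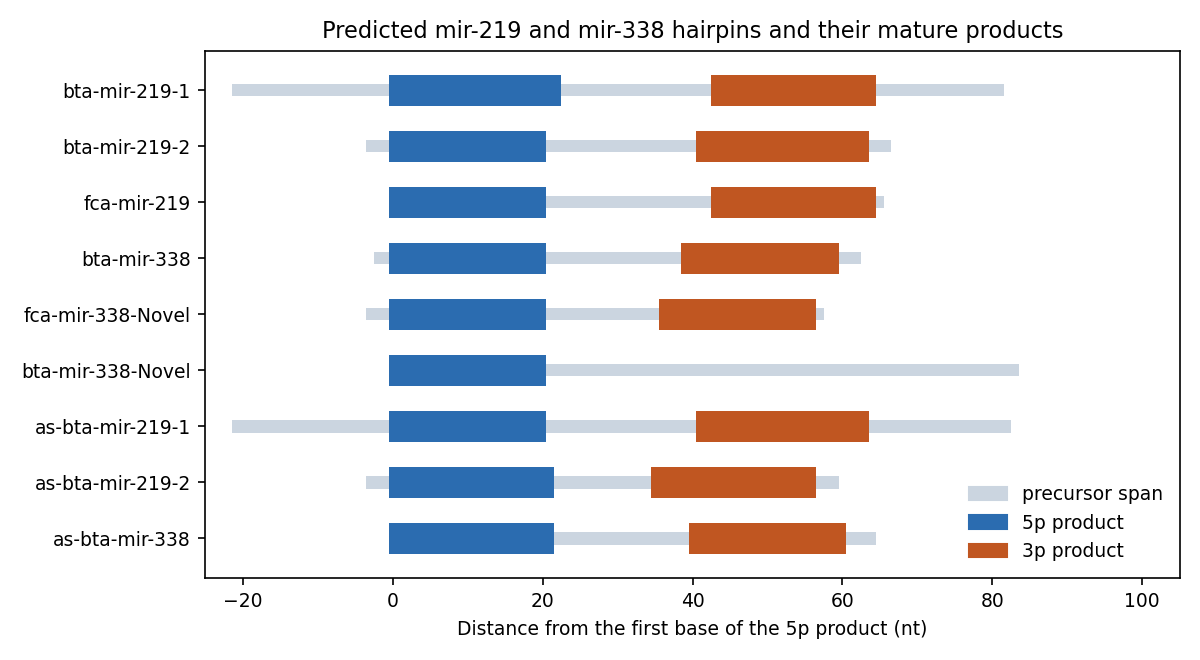
Predicted hairpins of mir-219 and mir-338, with the distance in nt from the first base of the 5p product on the horizontal axis. Thin grey bars are precursor spans, blue bars 5p products and orange bars 3p products. The 3p products of bta-mir-219-1 and fca-mir-219 both start 43 nt after the 5p product, and the chromosome 16 mir-338 locus has a 5p product alone.

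**Figure D2:**
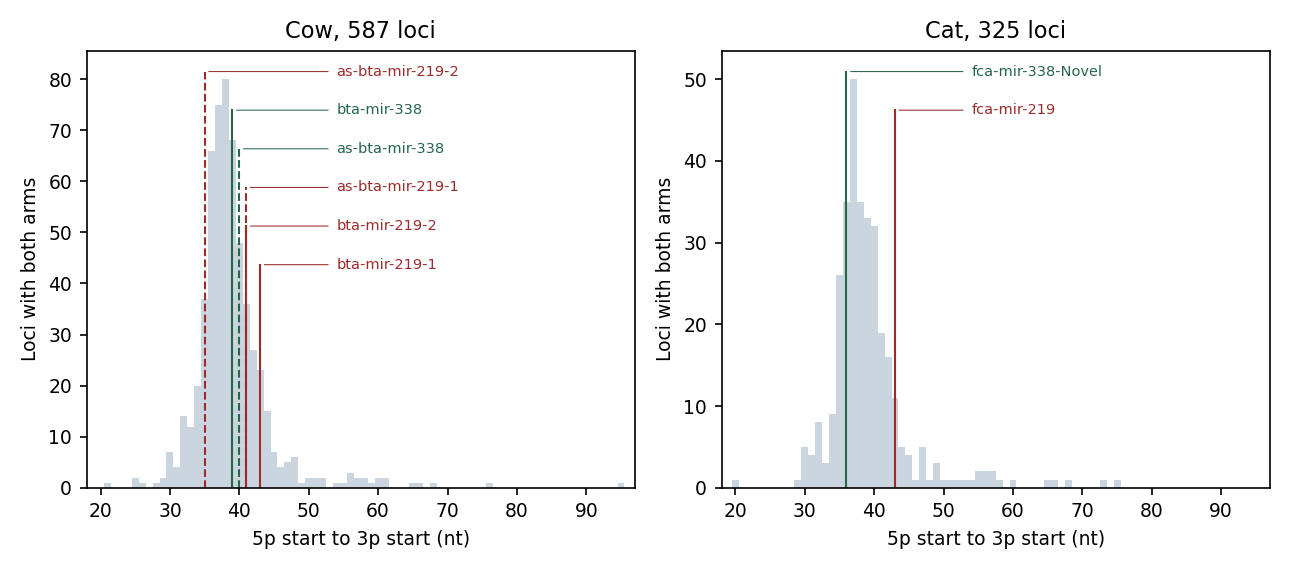
Number of loci with both arms (vertical axis) by the distance in nt from the start of the 5p product to the start of the 3p product (horizontal axis), for 587 bovine and 325 feline loci. Lines mark mir-219 (red) and mir-338 (green), dashed for antisense-named loci. The values of these families run from 35 to 43 nt, and the median over all loci is 38 nt.

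The precursor of bta-mir-219-1 was drawn much wider than its products. It spans 103 nt, of which 21 nt precede the 5p product and 17 nt follow the 3p product. Only 24 bovine loci (2.96%) were at least as long, against a median of 66 nt. From the start of the 5p product to the end of the 3p product, however, bta-mir-219-1 covers 65 nt, fca-mir-219 65 nt and bta-mir-219-2 64 nt. The precursors of bta-mir-219-2 and fca-mir-219 were 70 and 66 nt long and had 0 to 3 nt beyond their products at either end. By the study's methods the precursor span is a choice among candidate foldings around the reads. What set the wide span of bta-mir-219-1 was not tested.

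The chromosome 16 mir-338 locus was the member with a product from 1 arm alone. Its precursor has 84 nt, a length reached by 14.9% of bovine loci, and it gave 1 product, of 21 nt from 36476669 to 36476689, which starts at the first base of the hairpin. The remaining 63 nt of the span hold no called product. Of 810 bovine loci, 74 had a 5p product alone, and in 52 of these the product also started at base 1, so that feature was common among hairpins of this kind. The 74 loci had a median length of 64 nt. The nearest predicted loci on chromosome 16 were a locus of the mir-7180 family at 3.45 Mb on the side of lower positions and bta-mir-214 at 4.01 Mb on the other. No locus was called on its opposite strand.

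The annotated bovine members all had a hairpin on the opposite strand. This was 3 of 3 annotated members, or 3 of 4 with the chromosome 16 mir-338 locus, where 6.07% of the 412 annotated bovine loci and 6.17% of all bovine loci had an opposite-strand hairpin. Neither feline member had one, where 6.87% of feline loci did. The sets of the species differ in tissues and in number of libraries. A missing feline call can therefore not be told apart from these differences. The antisense hairpins were as-bta-mir-219-1 on chromosome 11 from 98997145 to 98997248 (plus strand), as-bta-mir-219-2 on chromosome 23 from 7335351 to 7335413 (plus strand) and as-bta-mir-338 on chromosome 19 from 52189641 to 52189705 (minus strand). They made up 3 of the 22 bovine loci with an antisense name. Those 22 loci fell into 18 families, of which mir-219, mir-374, mir-2284 and mir-2285 had 2 each. Of 61 families with at least 2 annotated bovine loci, mir-219, mir-374 and mir-6536 were the 3 in which each annotated locus had an opposite-strand hairpin, and the mir-6536 loci lie opposite each other. These families were picked out after their values were seen.

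In other mammals the strand opposite mir-338 carries mir-3065, and a mir-219 copy has mir-219b opposite it. No locus in either set had the name mir-3065. In the RefSeq table, however, a gene named MIR3065 lies inside the span of MIR338 and a gene named MIR219B inside that of MIR219-1, so 2 of the 3 matched members have a named partner at the place of the antisense hairpin. No other microRNA gene lies inside MIR219-2 in that table, although the call set has as-bta-mir-219-2 there. The table gives no strand.

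Each antisense hairpin gave products from both arms, 3 of 3, where 77.3% of all 22 antisense-named bovine loci did. All 3 pairs of hairpins therefore had 4 products, where 76.0% of the 25 opposite-strand pairs in cow had both arms in both hairpins. The shared span was 103 nt for the mir-219-1 pair, 63 nt for the mir-219-2 pair and 64 nt for the mir-338 pair, which is 98.5% of the shorter hairpin for mir-338 and the whole of it for mir-219. The other 22 bovine pairs shared between 50 and 72 nt (median 62 nt), so the mir-219-1 pair was the longest of the 25. Its antisense hairpin has 104 nt and carries 21 nt before and 19 nt after its products, and so has the same wide margins as the sense hairpin.

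On the opposite strand the arms swap places, so that an antisense 5p product faces the sense 3p product. Across from the 5p product of bta-mir-219-1 lay the antisense 3p product of 23 nt (98997207 to 98997229), with 21 nt in common. Across from its 3p product lay the antisense 5p product of 21 nt (98997166 to 98997186), with 19 nt in common. The antisense products of mir-219-2 were both 22 nt long, the 5p product from 7335354 to 7335375 and the 3p product from 7335389 to 7335410. They shared 18 nt and 19 nt with the sense products. The antisense 5p product of mir-338 had 22 nt (52189684 to 52189705) and the 3p product 21 nt (52189645 to 52189665), and each shared 20 nt with the product across from it. Facing products in the other bovine pairs shared between 16 and 21 nt (median 20 nt), so the members lay in the usual range.

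**Figure D3:**
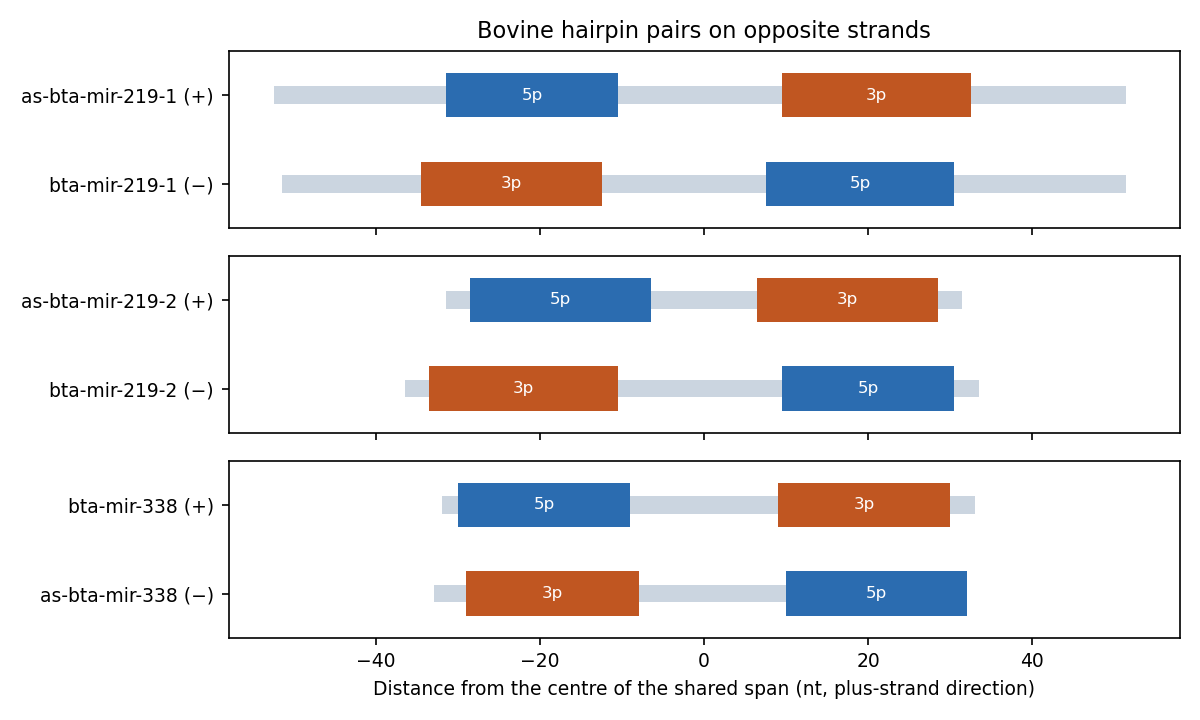
The bovine hairpin pairs of mir-219-1, mir-219-2 and mir-338, with the distance in nt from the centre of the shared span on the horizontal axis and the strands in separate rows. Grey bars are precursor spans, blue bars 5p products and orange bars 3p products. The antisense products of mir-219-2 lie closer together (35 nt between their 5′ ends) than the sense products (41 nt).

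The pairs differed in how the facing products were shifted against each other. In the mir-219-1 pair, the 3′ end of each product ran past the 5′ end of the product across from it, by 2 nt in 3 cases and by 3 nt for bta-mir-219-1-3p. In the mir-338 pair each 3′ end stopped short of the facing 5′ end, by 2 nt for bta-mir-338-3p and by 1 nt for the others. The mir-219-2 pair was mixed. Its antisense 5p product and the sense 3p product ran past each other by 4 and 5 nt, while its antisense 3p product and the sense 5p product stopped short by 2 and 3 nt.

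Most single product ends in the other bovine pairs ran past the facing end, as those of the mir-219-1 pair did. Of 76 such ends, 58 ran past, 8 were level and 10 stopped short, with a median of 2 nt past. Of 16 other bovine pairs with products facing each other on both arms, 4 had all their 3′ ends past the facing end, and in none did all 3′ ends stop short. Among 10 such feline pairs these numbers were 4 and 0. The layout of the mir-338 pair, with each 3′ end short, was therefore seen in none of these 26 pairs of cow and cat. The ends are positions of called products with no read numbers behind them, so the spread of read ends around each position is unknown.

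**Figure D4:**
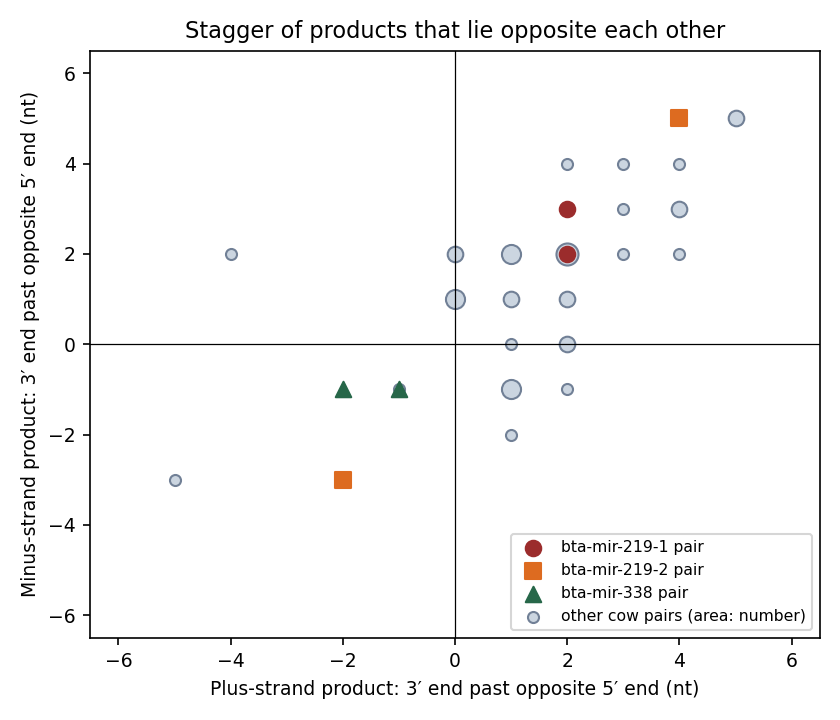
Shift of facing products in bovine opposite-strand pairs. The horizontal axis gives how far, in nt, the 3′ end of the plus-strand product runs past the 5′ end of the minus-strand product, and the vertical axis the same for the minus-strand product. Coloured points are the mir-219-1, mir-219-2 and mir-338 pairs, and grey circles, sized by number, are the 38 product pairs of the other bovine loci. Both mir-338 points lie in the lower left, where each 3′ end is short. A mir-219-2 point and 2 of the 38 other product pairs lie there too.

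Within a pair, the 5p-to-3p distance was nearly the same on both strands for mir-219-1 (43 nt sense, 41 nt antisense) and mir-338 (39 nt sense, 40 nt antisense). For mir-219-2 it was 41 nt on the sense strand and 35 nt on the antisense strand, and the stretch between the products was 20 and 13 nt. A difference of at least 6 nt was seen in 1 of the 16 other bovine pairs that could be measured and in 1 of 10 feline pairs, and 12 of the 16 differed by at most 2 nt. Of all bovine loci with both arms, 89.1% had a distance of at least 35 nt, so as-bta-mir-219-2 was among the more compact hairpins.

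Apart from the antisense hairpins, the members had no predicted neighbour close by. With gaps of at most 10 kb, 3 of 4 bovine members lay in a group, where 29.0% of bovine loci did, and each of these groups was the member and its antisense hairpin alone. No feline member lay in a group, where 33.3% of feline loci did. The closest other neighbours of bta-mir-219-2 were bta-Novel26 at 29.3 kb and bta-mir-2376 at 88.8 kb, both on the same strand. Those of bta-mir-338 were bta-Novel62 at 666 kb and bta-mir-2346 at 674 kb. The feline mir-338 locus had its nearest neighbour, fca-Novel92, at 2.0 Mb and was the last of the 36 loci on its sequence.

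Around mir-219 the order of microRNAs was shared between the species. On bovine chromosome 11, bta-mir-181a-2 and bta-mir-181b-2 lie 3.29 Mb from bta-mir-219-1 on the side of lower positions, followed by bta-mir-199b at 129 kb, and bta-mir-126, a microRNA of endothelium, lies 5.13 Mb away on the other side. In the cat, fca-mir-181a-2 and fca-mir-181b-2 lie 3.26 Mb from fca-mir-219 on the lower side and fca-mir-199b at 123 kb, and fca-mir-126 lies 5.54 Mb away on the other side. The strands were the same in both species for mir-181a-2, mir-181b-2, mir-199b and mir-219, whereas mir-126 was on the plus strand in cow and on the minus strand in cat. The loci in between had no family number, bta-Novel128 in cow and fca-Novel148, fca-Novel143 and fca-Novel145 in cat. For bta-mir-219-2 no such comparison could be made, since only 1 mir-219 locus was called in the cat.

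**Figure D5:**
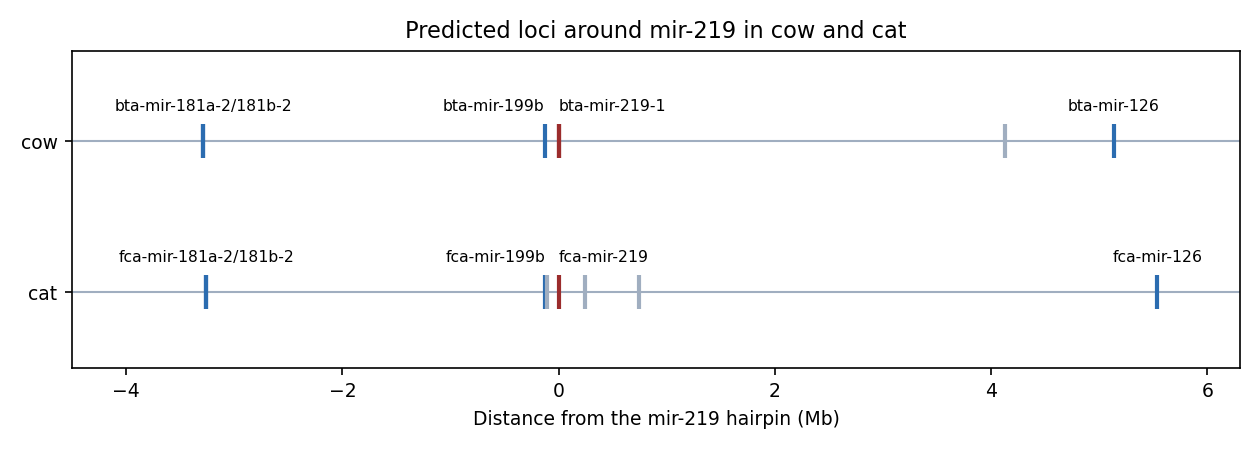
Predicted loci around mir-219 in cow (bta-mir-219-1) and cat (fca-mir-219), with the distance from the mir-219 hairpin in Mb on the horizontal axis. Red marks are mir-219, blue marks the named neighbours and grey marks other loci. The neighbours mir-199b (129 kb in cow, 123 kb in cat), mir-181a-2 with mir-181b-2 and mir-126 follow in the same order in both species.

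Other families with a described part in oligodendrocytes were counted as a comparison. The list had 14 families, among them mir-138 and mir-23, which promote the differentiation of these cells, mir-9, which is a microRNA of neural precursors, and the families mir-17, mir-18, mir-19, mir-20 and mir-92, whose shared cluster promotes the proliferation of precursors. All 14 had a locus in each species, 29 loci in cow and 25 in cat. Both arms were called at 29 of the bovine loci and 22 of the feline loci (88.0%), the exceptions being 2 of 4 feline mir-19 loci and 1 of 2 feline mir-92 loci. Over all loci these shares were 72.5% in cow and 65.7% in cat. How many families of any other list have a locus was not counted. None of these 54 loci had an opposite-strand hairpin, where 6.17% of all bovine and 6.87% of all feline loci did. The annotated bovine members had one, while the chromosome 16 mir-338 locus and the feline members had none. Many of these families are also expressed outside the nervous system, so their presence does not mark oligodendrocytes in the tissues used.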

How the data were processed

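Small RNA libraries from 10 bovine tissues and from feline skin and muscle were trimmed by the authors with cutadapt 1.15 and aligned with Bowtie (1.2.11 in the submitters' notes). The authors then ran miRWoods, which scores read stacks and candidate hairpins with 2 random forests, on the libraries of each species together. The deposited files give starts and ends counted from 1, strand and name for precursors and mature products, with no score, read number or sequence. The deposited files give no depth per locus, and read numbers from other sources were not used here. No source used here names the genome build, although the names of the feline sequences carry a version. No genome sequence of either species was used here, so no bovine or feline sequence was read. The members and lists were chosen with earlier results of these data known.

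Loci were matched by name. Overlap on opposite strands needed at least 1 nt. Groups joined loci with gaps of at most 10 kb, the distance in the study's methods. A feline 5p product named long counted as 5p. Loci named in the text are the members, their antisense loci, all overlapping loci, the nearest neighbours and the listed families. Neighbours beyond the nearest were chosen after their values were seen. No test across samples was possible, because the files hold no value per sample. Intervals are 95% exact (Clopper-Pearson). Python 3.11.15, numpy 2.4.6, scipy 1.17.1 and matplotlib 3.10.9 were used, and the computations were tested on simulated loci.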

Additional observations from a re-analysis of the deposited data

How the results depend on the processing

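Of 31 alternative values, 7 moved, 0 reversed and 24 did neither. A count was taken as moved beyond 1.5 times, a share outside its 95% exact interval and a distance by over 1 nt. Part of the 24 could hardly move, so the tally is no measure of stability. The intervals for the share of members with both arms ran from 19.4 to 99.4% in cow and from 15.8 to 100% in cat. The member pairs overlapped over at least 98.5% of the shorter hairpin, so a stricter limit on overlap could hardly drop one. Counting antisense-named loci, or any overlapping opposite-strand locus, as members gave 7 bovine members in place of 4, and with the antisense-named loci the bovine share with both arms, 3 of 4, became 85.7%. On the same strand only, 0 of the 3 bovine members in a group stayed in one. When the stretch between the products replaced the distance between their 5′ ends, bta-mir-219-1 minus fca-mir-219 went from 0 to -2 nt, bta-mir-219-1 minus bta-mir-219-2 from 2 to 0 nt, and as-bta-mir-219-1 minus bta-mir-219-1 from -2 to 0 nt, since it leaves out product length. The share of all bovine loci with both arms was 67.9% when only products of 20 to 24 nt counted, a setting that left the members as they were. Leaving out the feline product named long, which was added after the data were seen, gave 65.5% in cat. Groups at 1, 5 and 50 kb and by starts held the same number of members as at 10 kb. At 50 kb the group of bta-mir-219-2 also took in bta-Novel26, 29.3 kb away. None of these settings could drop a bovine member, since each grouped one overlaps its antisense hairpin. The 2 alternatives that needed sequences of the bovine and feline loci were not run. No paired analysis was possible because the files hold no value per sample, and for the same reason no library could be left out. The effect of depth on the calls was not analysed here.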

Other observations

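The order in which the sets list the products of a locus is not explained in the sources used here. The 3p product came before the 5p product at bta-mir-219-1, bta-mir-338, fca-mir-219 and the feline mir-338 locus, and after it at bta-mir-219-2. Over all loci with both arms, the 5p product came first at 50.8% of 587 bovine and 56.0% of 325 feline loci. On the antisense strand the 3p product came first for mir-219-1 and mir-219-2 and the 5p product for mir-338.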
